A study of Homo sapiens with 4 samples.

Results

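The genes described here are ARPC1B, FTH1, ARL6IP4 and PTMA, 4 protein-coding genes that had fewer reads in both TDP-43 knockdown libraries than in their controls. They were chosen on the measured gene counts, by the rule that the count was at least 2-fold lower with the knockdown in each of 2 backgrounds. Of 39458 genes with a read in some library, 8145 had a mean of 20 or more reads over the libraries, and 37 of these (0.454%) met the same rule. All 4 genes passed the minimum and are among the 37. FTH1 and ARL6IP4 passed it only through the azacytidine library, in which they are highest, with means of 8 and 19.3 reads over the other 3 libraries, and ARPC1B only through the control and azacytidine libraries. The rule used these counts, so their knockdown values are given as a description, without a test.

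The libraries were PacBio Iso-Seq libraries, in which complementary DNA is read as long single molecules, made from polyadenylated RNA with MarathonRT for first-strand synthesis. The cells were cortical neurons derived from KOLF2.1J, a reference line of human pluripotent stem cells. Every group carried the same engineered constructs, namely NGN2 under a doxycycline-inducible promoter, which drives neuronal differentiation, and a constitutive dCas9-BFP-KRAB repressor (CRISPRi). The stem cells received a lentiviral guide RNA and were selected with puromycin as stable pools, not as clones. The control library carried a non-targeting guide and the knockdown library a guide against TDP-43. The azacytidine library carried the non-targeting guide and was treated with 5 µM 5-azacytidine, an inhibitor of DNA methyltransferases, for 72 hours. The fourth library combined the TDP-43 guide with that treatment. Each group consisted of a single library, and differences below therefore have no replicate check. The day of harvest of each library is not given in the sources used here.

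TDP-43, the product of TARDBP, is an RNA-binding protein that prefers UG-rich RNA, represses cryptic exons and shapes the processing and stability of many neuronal transcripts. The 4 genes belong to separate pathways. FTH1 encodes the heavy subunit of ferritin, the cell's iron store, whose translation is held back by iron regulatory proteins that bind a hairpin in the 5′ untranslated region. ARPC1B encodes a subunit of the Arp2/3 complex, which nucleates branched actin filaments. PTMA encodes prothymosin alpha, a small and very acidic nuclear protein linked to chromatin. ARL6IP4 encodes a protein that interacts with the small GTPase ARL6 and resembles the SR splicing factors. FTH1 and PTMA are also known for many processed copies, sequences that were copied back into the genome from spliced messenger RNA.

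The processed copies are shown first because they bear on how reads of these genes can be assigned. The stretch of FTH1 coding sequence from base 22 to base 81 (chr11:61967345-61967404, minus strand, hg38) is set beside the copy FTH1P8 on the X chromosome (chrX:148052233-148052292, plus strand), and the capital marks the only base of the 60 at which they differ.
FTH1: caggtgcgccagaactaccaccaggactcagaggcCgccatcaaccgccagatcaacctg
FTH1P8: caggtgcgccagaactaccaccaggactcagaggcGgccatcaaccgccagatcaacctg

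The first 60 coding bases of PTMA lie in separate exons between 231708707 and 231711362 on the plus strand of chromosome 2, whereas the copy PTMAP2 holds them without an intron (chr5:118973796-118973855, plus strand). They also differ at 1 base, in capitals.
PTMA: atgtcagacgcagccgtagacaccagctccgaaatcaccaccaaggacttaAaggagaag
PTMAP2: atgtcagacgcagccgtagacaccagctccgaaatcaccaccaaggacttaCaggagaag

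Sequences came from the GENCODE 29 transcripts of hg38. Of the 25 annotated copies named after FTH1, all were compared with its coding sequence by BLAST. Their identity over the aligned part ran from 67.0% to 97.6% with a median of 90.8%, and 13 copies reached 90%. For PTMA, 7 copies were compared, with identities of 85.0% to 98.2%, a median of 92.5% and 5 copies at 90% or above. The gene table holds 12 copies of PTMA, and PTMAP9, PTMAP11 and PTMAP15, which had reads, were not among those compared. No identity is given for the copy of ARPC1B. FTH1P8 and PTMAP2 had the highest identity among the copies aligned over at least 90% of the coding sequence. Their first 60 aligned bases are shown, and neither is among the copies with reads.

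The targeted gene itself was lower in the libraries labelled as knockdowns. TARDBP (ENSG00000120948.19) had 104 reads in the control, 72 in the knockdown, 73 in the azacytidine and 43 in the combined library. The level left was 62.8% without azacytidine and 60.3% with it, a log2 ratio of -0.67 (95% interval -1.13 to -0.23) and of -0.73 (-1.31 to -0.17). The libraries held between 466337 and 767621 gene reads. In both pairs the knockdown library had a smaller share of transcript reads on transcripts under 2000 bases (12.6% against 10.1%, and 15.9% against 13.1% with azacytidine) and a smaller share of full-length transcript reads (28.2% against 23.3%, and 35.7% against 31.2%). Mitochondrial genes took 0.150% of reads in the control and 0.113% with the knockdown, and 0.309% with azacytidine and 0.0781% with both. The 15 neuronal marker genes summed to between 3745 and 4554 CPM (reads scaled to effective library size). The 12 genes of dividing cells summed to 1140 and 1027 CPM without azacytidine and to 136 and 146 with it, and the 11 progenitor genes to 1111 and 992 without it and to 217 and 149 with it. The 8 microglia and blood markers summed to between 6.19 and 12.9, with PTPRC, AIF1, SPI1 and TYROBP at 0 reads in every library. The part of these differences in the results below was not tested, and in such bulk samples fewer cells of a type and less RNA per cell cannot be told apart.

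FTH1 was lower with the knockdown in both backgrounds and higher with azacytidine in both. FTH1 (ENSG00000167996.16, chr11:61959718-61967634, minus strand) had 14 reads in the control library, 2 in the knockdown library, 63 in the azacytidine library and 8 in the library with both. Scaled to effective library size, the levels were 22.6, 2.92, 127 and 16.5 CPM in the same order. The azacytidine library is the highest, the knockdown library is the lowest, and the level with both treatments is nearest to that of the control. The log2 ratio of knockdown to control, with a pseudocount of 0.5 reads, was -2.68 without azacytidine (95% interval -6.13 to -0.83) and -2.87 with it (-4.22 to -1.88), that is 6.41-fold and 7.33-fold lower. These are exact Clopper-Pearson intervals and take in counting error alone, as reads of amplified molecules are not independent of each other. The first of them is wide because the knockdown library held only 2 reads.

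ARPC1B had the lowest knockdown ratios of the 37 genes when ranked by the weaker of the pair, with FTH1 next. ARPC1B (ENSG00000130429.16, chr7:99374249-99394816, plus strand) had 51 reads in the control, 6 in the knockdown library, 44 with azacytidine and 5 with both, or 82.3, 8.76, 89.0 and 10.3 CPM. The rule used these counts, so the lower levels with the TDP-43 guide are a description. The log2 ratio was -3.13 (-4.74 to -2.01) without azacytidine and -2.99 (-4.80 to -1.78) with it, 8.76-fold and 7.94-fold lower.

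PTMA was read most often of the 4 genes and so has the narrowest intervals. PTMA (ENSG00000187514.17, chr2:231706895-231713551, plus strand) had 172 reads in the control, 49 in the knockdown library, 145 with azacytidine and 45 with both, at 277, 71.5, 293 and 92.8 CPM. As for ARPC1B, the rule used these counts, and the order of the levels is a description. The log2 ratio was -1.95 (-2.44 to -1.49) without azacytidine and -1.65 (-2.18 to -1.17) with it, 3.85-fold and 3.14-fold lower.

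ARL6IP4 followed the order seen for FTH1. ARL6IP4 (ENSG00000182196.14, chr12:122980060-122982913, plus strand) had 30 reads in the control, 10 in the knockdown library, 70 with azacytidine and 18 with both, at 48.4, 14.6, 142 and 37.1 CPM. The azacytidine library is again the highest and the knockdown library the lowest. The log2 ratio was -1.68 (-2.93 to -0.66) without azacytidine and -1.90 (-2.77 to -1.17) with it, 3.21-fold and 3.74-fold lower. For each of the 4 genes, the ratio in either background lies inside the interval of the other. The choice of genes lower in both backgrounds favours such likeness, and some intervals are wide, so nothing is read from it.

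**Figure D1:**
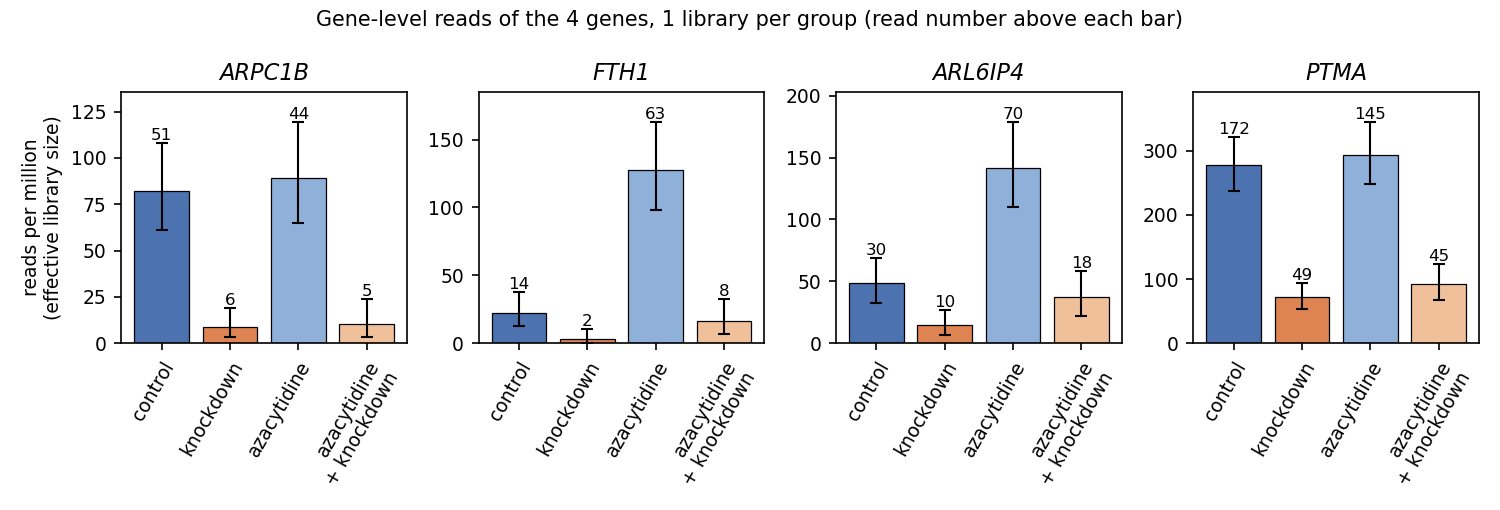
CPM of each gene by effective library size (vertical axis, linear from 0, with its own scale in each panel) in the 4 libraries (horizontal axis), with the read number printed above each bar and exact 95% Poisson intervals as error bars, which cover counting error only. In every panel both bars of the knockdown libraries are lower than the bar of their own control, and the azacytidine bar stands far above the control bar for FTH1 (127 against 22.6) and ARL6IP4 (142 against 48.4).

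The rule that chose the genes sets a threshold at a log2 ratio of -1. Ranked by the weaker of their 2 ratios, the genes held places 1 (ARPC1B), 2 (FTH1), 7 (ARL6IP4) and 8 (PTMA) of the 37. The genes just inside the threshold were RPS2, with a weaker ratio of -1.04, UBB with -1.03 and FST with -1.02. Just outside were TTYH1 with -0.97, HNRNPA1 with -0.97 and OTUB1 with -0.96. Over all 8145 genes the median knockdown log2 ratio was 0.18 without azacytidine and 0.05 with it.

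**Figure D2:**
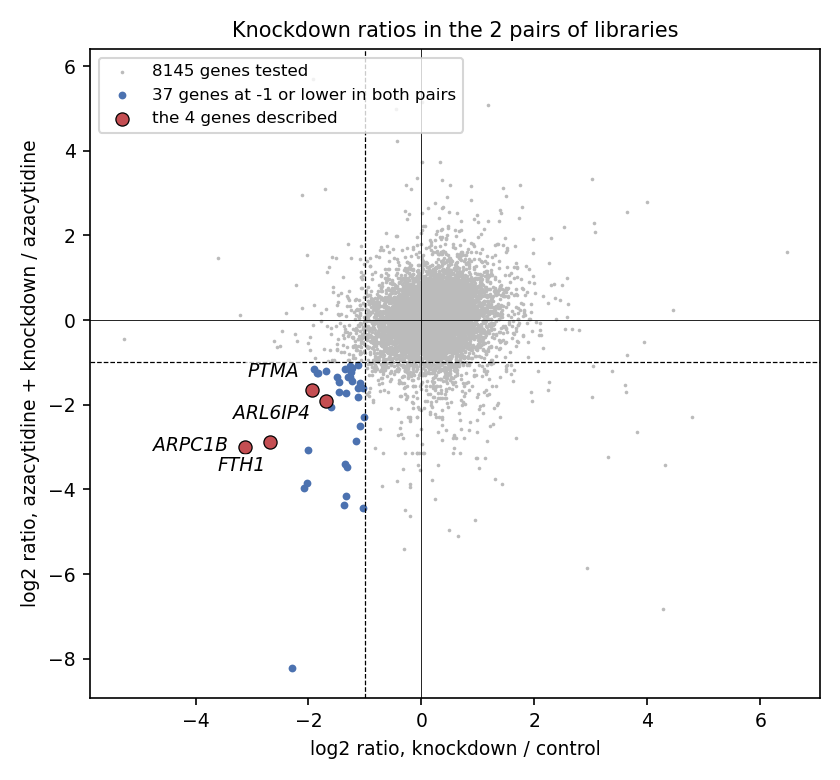
Log2 ratio of knockdown to control (horizontal axis) against that of the combined treatment to azacytidine (vertical axis) for the 8145 genes tested, with the 37 genes that meet the rule and the 4 described genes marked; dashed lines stand at -1. The 4 genes lie near the diagonal in the lower left, where they were chosen to lie, with ARPC1B (-3.13, -2.99) and FTH1 (-2.68, -2.87) farther out than PTMA (-1.95, -1.65) and ARL6IP4 (-1.68, -1.90).

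The rule did not use the azacytidine ratios, and the effect of azacytidine was fitted in an additive edgeR quasi-likelihood model with knockdown and azacytidine terms. The choice of genes still bears on this fit, so the adjusted p-values of FTH1 and ARL6IP4 are a description, for the reasons given below. FTH1 and ARL6IP4 had higher values with azacytidine in both pairs. For FTH1, 14 control reads stood against 63 azacytidine reads, a log2 ratio of 2.46 (1.65 to 3.45), and 2 and 8 reads in the knockdown background, a log2 ratio of 2.27 (0.17 to 5.77). In the edgeR model its log2 fold change was 2.47, with an adjusted p of 0.0173. For ARL6IP4 the log2 ratio was 1.54 (0.91 to 2.22) without the knockdown and 1.32 (0.16 to 2.63) with it. Its edgeR log2 fold change was 1.47 with an adjusted p of 0.0448.

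ARPC1B and PTMA did not pass the azacytidine test. ARPC1B had log2 ratios of 0.12 (-0.50 to 0.72) and 0.26 (-1.81 to 2.21), an edgeR log2 fold change of 0.14 and an adjusted p of 0.863. PTMA had log2 ratios of 0.08 (-0.25 to 0.41) and 0.38 (-0.24 to 0.99), an edgeR log2 fold change of 0.21 and an adjusted p of 0.667. By edgeR 2 of the 4 genes were called higher, and 248 of 8145 genes (3.04%) over all. Nothing is read from this count, for the reasons given next. By edgeR 0 of the 4 were called lower, also 0 at an unadjusted p under 0.05 and 0 by DESeq2, where 590 genes (7.24%) were lower by edgeR. With azacytidine edgeR also called 8 of 9 tested genes of dividing cells and 4 of 6 tested progenitor genes lower, and DESeq2 called 5 of the 9 and 3 of the 6. The pluripotency markers summed to 686 CPM in the control and 429 with azacytidine (2 of 5 tested called lower by edgeR, 0 by DESeq2), the mesenchymal markers to 366 and 158, and the astrocyte markers to 197 and 101. Among the pluripotency markers, POU5F1 had 2, 0, 2 and 0 reads and NANOG 0, 0, 2 and 0 (control, knockdown, azacytidine and both). LIN28A had 129, 200, 99 and 121, so the sum does not stand for every marker of that list. The part of these changes of markers in the values of FTH1 and ARL6IP4 was not tested.

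FTH1 and ARL6IP4 reached the minimum of 20 reads only through the azacytidine library, which is on the high side of the difference tested, so the choice favoured that difference. The azacytidine calls also rest on 1 residual degree of freedom, for which the interaction of the treatments serves as error. Since the genes were chosen for low ratios in both backgrounds, the choice also favours a small interaction and so small p-values, and both contrasts use the same 4 libraries. The adjusted p-values of FTH1 and ARL6IP4 are therefore a description of the fit. With an additive DESeq2 model neither call stood (adjusted p of 0.137 for FTH1 and 0.391 for ARL6IP4), and ARL6IP4 had an edgeR adjusted p of 0.0540 when the minimum was a mean of 5 reads, where that of FTH1 was 0.0237.

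The gene table also counts reads that the transcript tables give to no transcript, and the 4 genes differed in how many of their reads were of that kind. For FTH1 nearly all reads had a transcript, 12 of 14 in the control, 2 of 2 in the knockdown library, 61 of 63 with azacytidine and 8 of 8 with both. On these reads alone the log2 ratio with the knockdown was -2.47 (-5.93 to -0.56) without azacytidine and -2.83 (-4.18 to -1.83) with it. For FTH1 the description is therefore nearly the same at gene and at transcript level.

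For ARPC1B most reads of the libraries without the TDP-43 guide had no transcript. They were 40 of 51 in the control (78.4%, 95% Wilson interval 65.4% to 87.5%) and 41 of 44 with azacytidine (93.2%, 81.8% to 97.7%), against 3 of 6 with the knockdown and 1 of 5 with both. Over all genes this share was 36.1% in the control, 41.5% in the knockdown library, 31.9% with azacytidine and 39.6% with both, so it moved the other way. The reads of ARPC1B with a transcript numbered 11, 3, 3 and 4. Their log2 ratio with the knockdown was -1.86 (-4.50 to -0.10) without azacytidine and 0.39 (-2.12 to 3.21) with it. The reads without a transcript had log2 ratios of -3.68 (-6.22 to -2.23) and -4.76 (-10.67 to -2.77). The low gene-level ratio of ARPC1B with azacytidine thus lies in reads counted for no listed transcript, and the transcript-level counts there are too few to show a difference.

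PTMA had reads of both kinds, and both were lower with the knockdown. Reads with a transcript numbered 93, 39, 80 and 33 in the order control, knockdown, azacytidine and both. Their log2 ratios were -1.39 (-1.98 to -0.84) and -1.24 (-1.88 to -0.65). Reads without a transcript numbered 79, 10, 65 and 12, or 45.9%, 20.4%, 44.8% and 26.7% of the gene's reads, with log2 ratios of -3.07 (-4.24 to -2.17) and -2.36 (-3.43 to -1.51). In each background the ratio was lower for the reads without a transcript, whose share over all genes was larger with the knockdown.

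ARL6IP4 had few reads without a transcript except with azacytidine, where they were 27 of 70 (38.6%, 28.0% to 50.3%). They were 2 of 30 in the control, 3 of 10 with the knockdown and 3 of 18 with both. The reads with a transcript numbered 28, 7, 43 and 15, and their log2 ratios with the knockdown were -2.07 (-3.58 to -0.92) and -1.46 (-2.45 to -0.61). With azacytidine the ratio of such reads was 0.94 (0.23 to 1.69) without the knockdown and 1.55 (0.22 to 3.13) with it. Among the 37 genes of the rule, 17 were also at least 2-fold lower in both pairs on transcript reads alone, which included FTH1, ARL6IP4 and PTMA and left out ARPC1B.

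**Figure D3:**
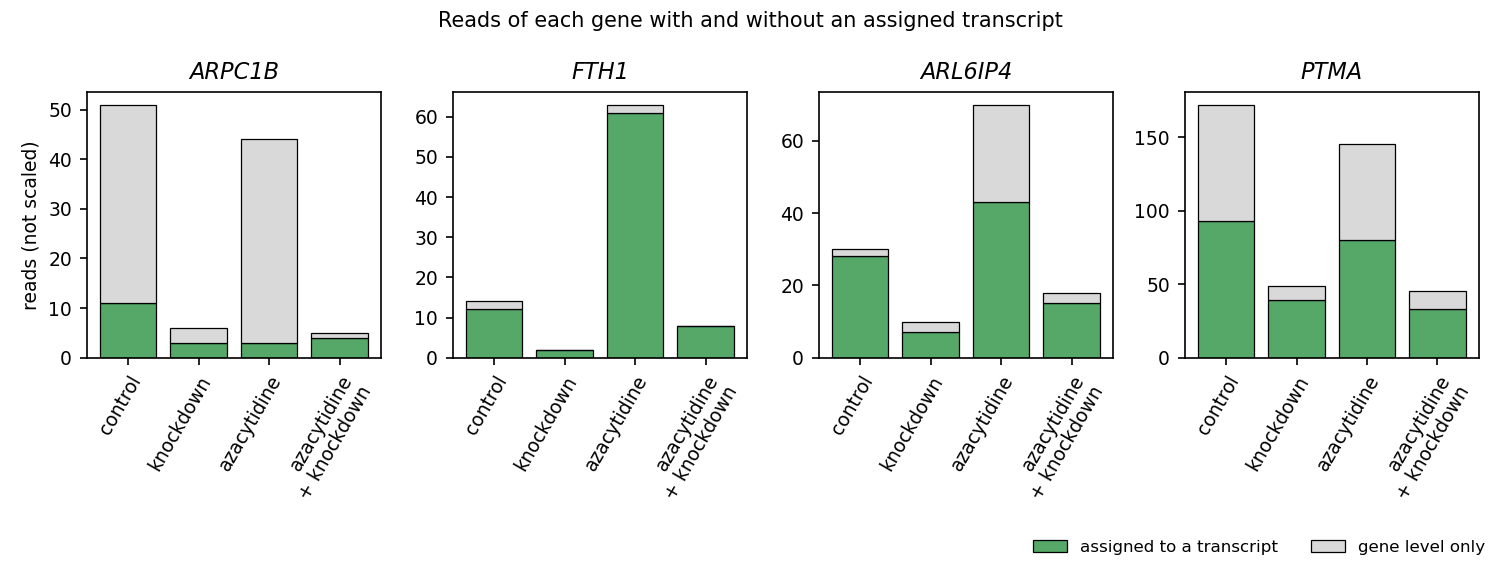
Unscaled reads (vertical axis, with its own scale in each panel) of each gene in the 4 libraries (horizontal axis), split into reads assigned to a transcript (green) and reads counted for the gene alone (grey). ARPC1B is mostly grey in the control and azacytidine libraries (40 of 51 and 41 of 44 reads), FTH1 is nearly all green, and in PTMA both parts are lower in the knockdown libraries.

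All 4 genes have short transcripts. The most abundant transcript was 1511 bases long for ARPC1B (ENST00000646101.2, 10 exons), 1203 for FTH1 (ENST00000273550.12, 4 exons), 796 for ARL6IP4 (ENST00000439686.6, 6 exons) and 1215 for PTMA (ENST00000409115.8, 5 exons). The median over the tested genes was 4221.5 bases. Only 3.57% of tested genes had a shorter main transcript than ARPC1B, 1.77% than FTH1, 0.454% than ARL6IP4 and 1.80% than PTMA. For ARL6IP4 this rank depends on a transcript that held only 22.1% of its transcript reads. The mean length of its transcripts, weighted by reads, was 1261.8 bases.

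The genes of the rule as a whole were short as well. Their median length was 1528.5 bases, against 4624 for the 79 genes that were at least 2-fold higher in both pairs. Of 85 genes with a main transcript under 1000 bases, 7 (8.24%) met the rule. Between 1000 and 2000 bases it was 19 of 687 (2.77%), between 2000 and 3000 bases 8 of 1431 (0.559%), between 3000 and 5000 bases 1 of 2892 (0.0346%) and at 5000 bases or more 1 of 3041 (0.0329%). At least 2-fold higher in both pairs were 3 of the 85 (3.53%) and 4 of the 687 (0.582%), against 0.970% over all genes. In the class from 1000 to 2000 bases, which holds ARPC1B, FTH1 and PTMA, the median knockdown log2 ratio was -0.23 without azacytidine and -0.13 with it. In the class under 1000 bases, which holds ARL6IP4 by its main transcript, it was 0.11 and -0.38. By its mean length weighted by reads, ARL6IP4 would fall in the class from 1000 to 2000 bases.

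The class medians are small beside the ratios of the 4 genes. Set against the median of its own class, ARPC1B was at -2.90 and -2.86, FTH1 at -2.45 and -2.75, ARL6IP4 at -1.80 and -1.53 and PTMA at -1.71 and -1.52 on the log2 scale, each without and with azacytidine. The genes were chosen from the low end of these classes, so this is a description of their size and not of a difference from genes of like length.

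**Figure D4:**
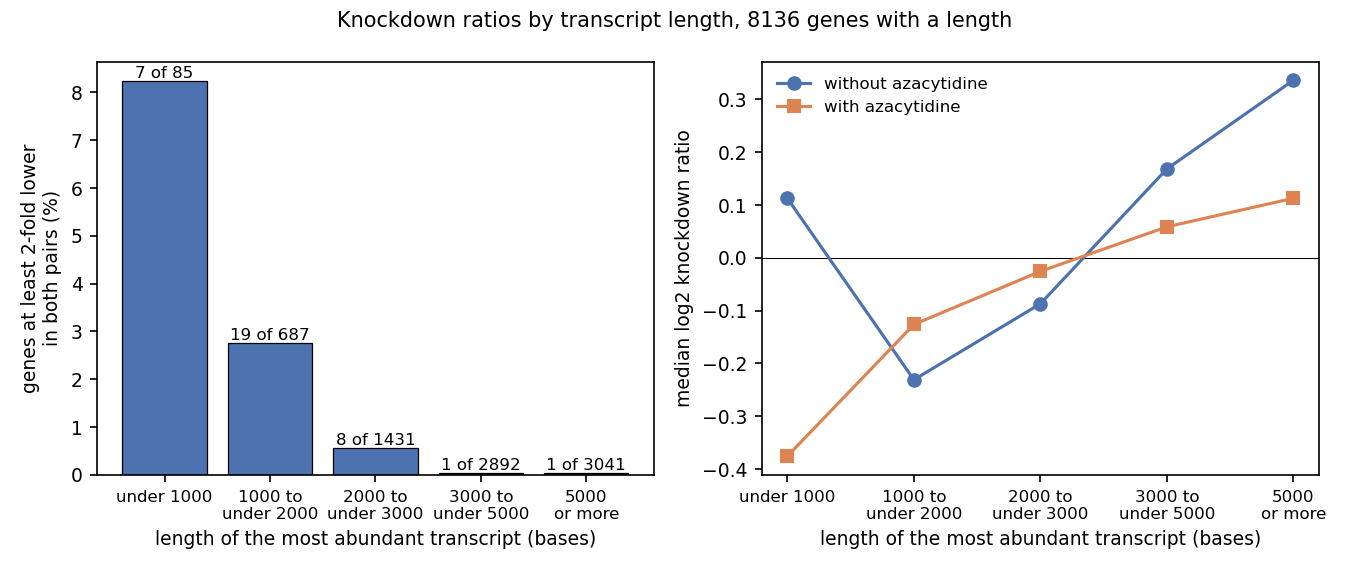
Left, percentage of genes at least 2-fold lower in both knockdown pairs, by the length of their most abundant transcript in bases, with the gene numbers above the bars; right, median log2 knockdown ratio in the same classes for the pair without azacytidine (circles) and the pair with it (squares). The percentage is 8.24% under 1000 bases and under 0.1% in both classes from 3000 bases upward.

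The authors' extended annotation lists 0 unannotated transcripts for the 4 genes, and few annotated ones carried the reads. FTH1 had reads on 5 of its 12 transcripts, and ENST00000273550.12 held 86.3% of them. Its second transcript, ENST00000620041.5 (830 bases), held 5.41%, all from the azacytidine library with an estimated 4.49 reads. PTMA had reads on 7 of 12 transcripts, with 89.8% on ENST00000409115.8, whose share was between 84.7% and 91.8% in every library. By these estimates, the main transcripts of FTH1 and PTMA were the main ones in every library. That of FTH1 rests on 2 reads with the knockdown and 8 with both treatments, of which 1 and 0 were uniquely assigned to it. Uniquely assigned reads of ENST00000409115.8 numbered 0, 1, 1 and 0 in the order control, knockdown, azacytidine and both. Its estimated full-length reads numbered 42, 15, 49 and 14. A shift between transcripts with the knockdown cannot be judged from these counts.

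ARPC1B had reads on 4 of 25 transcripts, and ENST00000646101.2 held 80.9%. The other three, ENST00000414376.6, ENST00000645391.1 and ENST00000458033.6, had an estimated 1.40, 1.40 and 1.22 reads, all in the control. ARL6IP4 was the only one of the 4 genes without a dominant transcript. Its reads spread over 11 of 20 transcripts, and 5 held at least 5%: ENST00000439686.6 with 22.1%, ENST00000543566.6 (1591 bases) with 21.5%, ENST00000454885.6 (1318 bases) with 19.8%, ENST00000453766.7 (1491 bases) with 12.5% and ENST00000315580.10 (1023 bases) with 9.86%. Each of the 5 had fewer estimated reads, before scaling, in the knockdown library than in the control and fewer with both treatments than with azacytidine. With at most 9.91 estimated reads on any of them in a library, shifts between them were not detectable at this depth.

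The processed copies themselves took few reads. The 25 copies of FTH1 in the gene table together had 2 reads in the control, 1 in the knockdown library, 2 with azacytidine and 3 with both, spread over 6 copies. The 12 copies of PTMA had 2, 4, 0 and 7 reads over 4 copies, of which PTMAP1 had 1, 2, 0 and 1. The single copy of ARPC1B, ARPC1BP1, had 0, 2, 0 and 0 reads, and ARL6IP4 has no copy in the table. Added to their genes, the copies made 16, 3, 65 and 11 reads for FTH1 and 174, 53, 145 and 52 for PTMA, so the sums kept the order of the libraries seen for the genes alone. Reads that could fit a gene and a copy equally cannot be traced in these tables, so the counts of FTH1 and PTMA remain uncertain to that extent. Uniquely assigned reads are counted for each transcript, so reads shared among a gene's own transcripts may be left out as well. For PTMA they numbered 7, 4, 7 and 4, far below the gene's 93, 39, 80 and 33 transcript reads. For FTH1 they numbered 9, 1, 52 and 0, against 12, 2, 61 and 8 transcript reads. The part of the copies in these numbers was not tested.

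Other annotated genes overlap the 4. ENSG00000284292, on the strand of ARPC1B, had 2, 4, 2 and 0 reads, and ENSG00000256028, on the strand of ARL6IP4, had 4, 6, 6 and 6 reads. PTMA shares its strand with U4 and MIR1244-1, which had 0 reads. On opposite strands, PDAP1 beside ARPC1B had 24, 19, 32 and 21 reads, BEST1 beside FTH1 had 4, 5, 5 and 7, and ABCB9 beside ARL6IP4 had 35, 40, 55 and 54. Among these neighbours, only PDAP1 had fewer reads in both knockdown libraries than in their own controls. Whether the counting used strand is not given in the sources used here, so reads could pass between genes on opposite strands.

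FTH1 shares a regulatory element with FTL, the gene of the ferritin light subunit, which is shown because FTL is the nearest functional partner of FTH1. The 30 bases around the loop of the iron-responsive element lie at chr11:61967573-61967602 (minus strand) in FTH1 and at chr19:48965335-48965364 (plus strand) in FTL, and the capitals mark the loop.
FTH1: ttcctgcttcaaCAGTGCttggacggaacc
FTL: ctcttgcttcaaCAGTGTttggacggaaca

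FTL had 7 reads in the control, 3 in the knockdown library, 45 with azacytidine and 4 with both, which is below the mean of 20 reads for testing. Its order of libraries is close to that of FTH1, with the azacytidine library far above the others. Its knockdown log2 ratios were -1.24 and -3.31. The element acts on translation, which these libraries do not measure. Of the other iron genes (storage, uptake and their regulators), 10 were tested besides FTH1, and 0 were at least 2-fold lower or higher with the knockdown in both pairs. Their medians were 0.30 without azacytidine and 0.01 with it. The knockdown term called 0 of them by edgeR and 0 by DESeq2, and 1 had an unadjusted edgeR p under 0.05. TFRC, the transferrin receptor, had 97, 128, 35 and 34 reads and was called lower with azacytidine by edgeR (log2 fold change -1.28, adjusted p 0.0250) and not by DESeq2.

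In the Arp2/3 complex no tested partner of ARPC1B met the 2-fold rule. Of 7 other subunit genes tested, 0 were at least 2-fold lower or higher in both pairs, and their medians were 0.01 and 0.10. ARPC1A, which encodes the alternative form of the same subunit, had 26, 23, 24 and 21 reads, with log2 ratios of -0.32 and -0.16. ACTR3B, a form of the actin-related protein 3, had 69, 34, 26 and 36 reads, with log2 ratios of -1.16 and 0.49. ACTR2 and ACTR3, the actin-related proteins at the core of the complex, had 96, 107, 81 and 64 reads and 117, 183, 77 and 114 reads. By the knockdown term edgeR called 0 of the 7, DESeq2 called 0 and 0 had an unadjusted edgeR p under 0.05.

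Among 17 genes of actin nucleation and turnover, 2 were at least 2-fold lower in both pairs (37 of 8145, or 0.454%, over all genes), and both encode cytoplasmic actins. ACTB had 427, 156, 295 and 69 reads, with log2 ratios of -1.59 and -2.06, and ACTG1 had 205, 92, 166 and 64 reads, with -1.30 and -1.34. Their main transcripts are 1812 and 1919 bases long, in the same length class as ARPC1B. The list's medians were 0.11 and -0.14. By the knockdown term edgeR called 0 of the 17 (4 at an unadjusted p under 0.05) and DESeq2 called 1. CFL1, the actin-severing protein cofilin, had 26, 15, 57 and 32 reads and was called higher with azacytidine by edgeR (adjusted p 0.0350) and not by DESeq2.

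In the list of acidic and small chromatin or actin proteins, 1 of 13 tested genes besides PTMA was at least 2-fold lower in both pairs, against 0.454% over all genes. This was PTMS, which encodes parathymosin, the closest relative of prothymosin alpha, with 30, 9, 44 and 18 reads and log2 ratios of -1.83 and -1.24. SET, a histone chaperone, had 299, 260, 214 and 229 reads, and HMGB1 had 238, 233, 184 and 120. The medians were -0.35 and -0.02. EdgeR called 0 of the 13 by the knockdown term (2 at an unadjusted p under 0.05) and DESeq2 called 0. With azacytidine, ANP32E, a histone H2A.Z chaperone, was called lower by edgeR (adjusted p 0.0332) and not by DESeq2.

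For ARL6IP4 the list held ARL6, its other named partners and the SR splicing factors. Of 23 tested, 0 were at least 2-fold lower or higher in both pairs, with medians of -0.07 and -0.25. ARL6 itself had 28, 63, 52 and 24 reads, with log2 ratios of 1.01 and -1.07, opposite in the backgrounds. ARL6IP1, a membrane protein of the endoplasmic reticulum, had 84, 87, 79 and 42 reads. By the knockdown term edgeR called 0 of the 23, DESeq2 called 0 and 0 had an unadjusted p under 0.05. Over all 8145 genes edgeR called 3 by the knockdown term, 749 had an unadjusted p under 0.05 and DESeq2 called 9.

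Genes of ribosomal proteins are given as a further group, of which 15 of 85 reached the minimum of reads. Those 15 had a median main transcript of 2741 bases, against 4221.5 over all tested genes. Of 15 tested, 1 (RPS2) was at least 2-fold lower in both pairs, against 0.454% over all genes, and the medians were -0.61 and -0.68, against 0.18 and 0.05 over all genes. When the minimum was a mean of 5 reads, 65 were included, of which 12 were lower in both pairs, against 242 of 13789 genes (1.76%) over all at that minimum, and the medians were -0.64 and -0.62. No median length was taken for these 65 genes, and the 2741 bases hold for the 15 alone. EdgeR called 0 of the 15 by the knockdown term (5 at an unadjusted p under 0.05) and DESeq2 called 0.

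**Figure D5:**
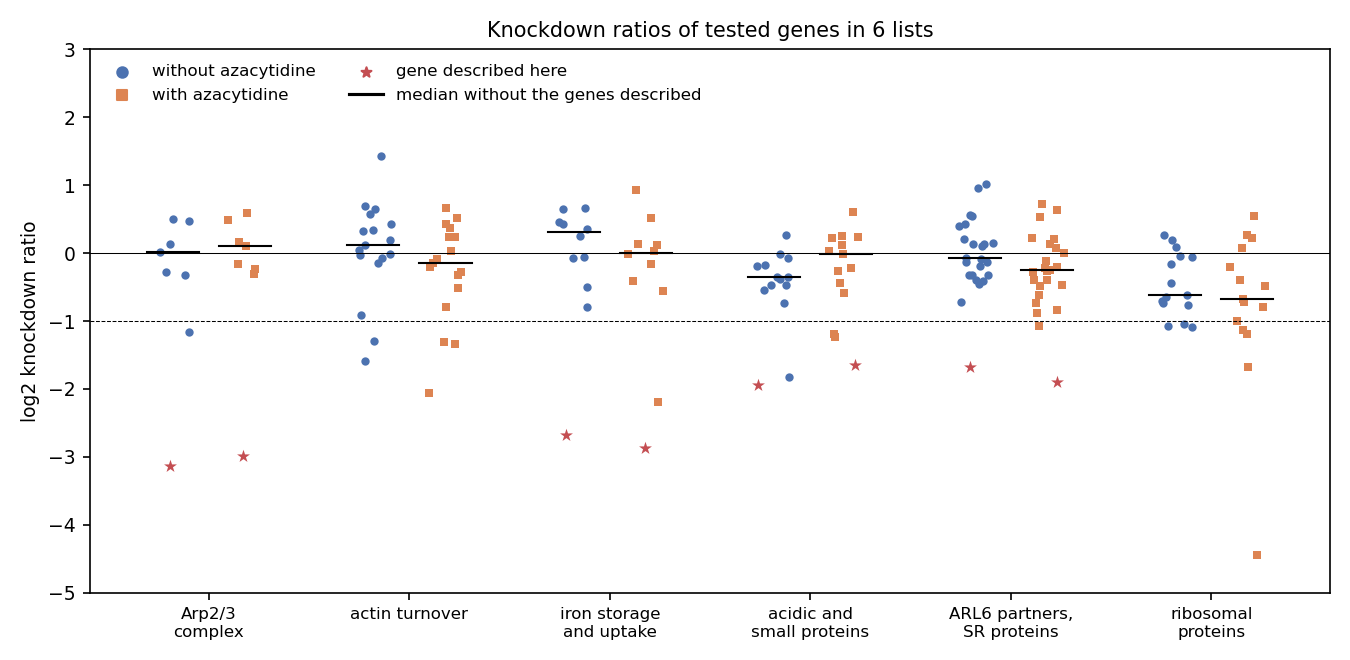
Log2 knockdown ratio (vertical axis) of each tested gene in 6 lists (horizontal axis), without azacytidine (circles) and with it (squares), with stars for the 4 described genes and bars for the medians of the other genes; the dashed line stands at -1. The stars lie below the medians of their lists, which run from -0.35 to 0.30 in the 4 lists that hold a described gene, and the ribosomal protein medians are -0.61 and -0.68.

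Over the 4 libraries, likeness to each gene was measured as the Euclidean distance between centred log2 levels. ARL6IP4 was nearest to ATP6V1G1 (0.46), a subunit of the vacuolar proton pump, RAB3A (0.50), a synaptic vesicle GTPase, and OAZ1 (0.51), the ornithine decarboxylase antizyme. PTMA was nearest to IDH2 (0.39), ENSA (0.41) and TUFM (0.43). The nearest gene to ARPC1B was PTMA (1.27), followed by MT-ND2 (1.36) and ACTB (1.42), and the nearest to FTH1 was ARL6IP4 (1.36), followed by RAB3A (1.50) and NBR2 (1.63). ARPC1B and FTH1 had no gene as close as those near ARL6IP4 and PTMA. All points share the same 4 libraries, and the distances are a description.

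The main transcripts were searched on their own strand for TGTGTG, the DNA spelling of a UG repeat of the kind TDP-43 prefers. FTH1 and PTMA held 1 match each, and ARPC1B and ARL6IP4 held 0. Introns were not searched, so a count of 0 covers the spliced main transcript alone. The match in FTH1 lies in the coding sequence, in 30 bases that cross an exon junction between 61964873 and 61964997 on the minus strand of chromosome 11. The match in PTMA lies in the 3′ untranslated region (chr2:231713467-231713496, plus strand). The motif is in capitals.
FTH1: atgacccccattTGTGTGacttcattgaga
PTMA: ctgtttgatgtaTGTGTGaaacaatgttgt

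Of 7297 tested genes whose main transcript was matched in GENCODE 29, 75.1% held the motif. The share was 17.5% for transcripts under 1000 bases and 47.2% from 1000 to 2000 bases. These lengths are those of GENCODE 29, not the deposited lengths used for the classes above. A match is a run of letters and no evidence of binding. The GENCODE 29 versions of the FTH1 and PTMA transcripts are 1229 and 1221 bases long, against 1203 and 1215 in the deposited annotation.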

How the data were processed

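Long reads from 4 Iso-Seq libraries, 1 per group, were analysed from the deposited tables, with groups taken from the treatment labels. Per the file headers, the authors aligned reads to hg38 by minimap2, and the extended annotation names as its source Bambu, which assigns reads to transcripts. Versions and settings are not given in the sources used here. The deposited gene and transcript tables hold estimated counts (total, full-length) and whole-number counts of uniquely assigned reads. The deposited CPM values have the column sum of the gene table as denominator and were used for that check alone.

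The deposited gene counts were all even, at most 0.00031 from an even number, so counts were divided by 2 to give reads, rounded to whole reads. Levels are CPM of effective library size (TMM, edgeR 4.0.16, R 4.3.3). Log2 ratios use a pseudocount of 0.5 reads. Their intervals and the Wilson intervals of shares are 95% intervals for counting error only. Tests ran over 8145 genes whose mean was 20 reads or more, in an additive edgeR quasi-likelihood model with Benjamini-Hochberg adjustment and a threshold of 0.05. DESeq2 1.42.0 was the alternative. With 1 library a group, p-values weigh a term against the departure from additivity among these libraries, with the estimate of error partly shared across genes. They do not measure the spread between cultures.

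The genes described, the 13 gene lists and the tests were chosen with earlier results of these data known. The genes named are those described, list genes (by preference those at least 2-fold different in both pairs and those with the highest level), copies with reads, overlapping genes, the 3 nearest genes to each and the 3 on each side of the threshold. FTH1P8, PTMAP2, FTL, ARPC1A, TFRC, ACTR3B, CFL1, ANP32E, ARL6 and ARL6IP1 were named after their values were seen. Gene symbols matched 8099 of the tested genes. Sequences are from GENCODE 29, compared with blastn 2.17.0. The alternatives were other scalings, a pseudocount of 2, other tables, other minimums, the length class, added copies and counts that were not halved.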

Additional observations from a re-analysis of the deposited data

Results flagged for a closer look

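Results whose direction was opposite in the 2 backgrounds, in each case between single libraries, are given here as values. The difference between backgrounds was not tested for any of them. For reads of ARPC1B with a transcript, the knockdown log2 ratio was -1.86 without azacytidine (11 and 3 reads) and 0.39 with it (3 and 4 reads). For the same reads the azacytidine log2 ratio was -1.39 without the knockdown (11 and 3 reads) and 0.86 with it (3 and 4 reads). For reads of ARPC1B without a transcript, the azacytidine log2 ratio was 0.36 without the knockdown (40 and 41 reads) and -0.72 with it (3 and 1 reads). For reads of ARL6IP4 without a transcript, the knockdown log2 ratio was 0.34 without azacytidine (2 and 3 reads) and -2.95 with it (27 and 3 reads). Each of these comparisons includes a library with 3 or fewer reads.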

How the results depend on the processing

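Of 74 alternative values for the knockdown ratios of the 4 genes, 68 were -1 or lower and 61 lay inside the 95% interval of the reported ratio. Scaling by total reads or DESeq2 size factors, a pseudocount of 2 reads, the length class, the added copies and counts that were not halved left every knockdown ratio of the 4 genes inside its interval. The alternatives that did not were the transcript tables. With the sum of transcript counts, ARPC1B had knockdown ratios of -1.81 and 0.53 and an azacytidine ratio of -1.51 without the knockdown, PTMA had knockdown ratios of -1.34 and -1.10, and ARL6IP4 an azacytidine ratio of 0.81 without the knockdown. With full-length counts, the ARPC1B values were -1.51, -0.17 and -1.20, the PTMA ratio without azacytidine was -1.30, and ARL6IP4 had a knockdown ratio of -0.67 with azacytidine and an azacytidine ratio of -0.071 without the knockdown. With uniquely assigned counts, the ARPC1B values were -1.39, 0.25 and -1.22, and PTMA had -0.85 and -0.49. FTH1 then had a knockdown ratio of -6.46 with azacytidine and an azacytidine ratio of -1.16 with the knockdown, both of which rest on 0 unique reads in the library with both treatments and are no bounds. Set against its length class, the PTMA azacytidine ratio without the knockdown was -0.32. Adding the overlapping genes on the same strand, chosen after seeing the data, left the ratios of ARPC1B and ARL6IP4 inside their intervals. The cause of these differences was not tested.

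The count of 37 genes lower in both pairs became 72 with total reads, 19 with transcript counts, 7 with full-length counts, 242 with a minimum mean of 5 reads and 1315 with no minimum beyond 1 read. The fewer counts left 5989 and 954 genes in the tables of transcript and full-length counts. The scaling moved the median knockdown ratio of all genes without azacytidine from 0.18 to -0.04 with total reads. DESeq2 called 33 genes higher and 241 lower with azacytidine. The azacytidine call was lost for FTH1 with DESeq2 (log2 fold change 2.48), and for ARL6IP4 with DESeq2 (1.45), a minimum mean of 5 reads (1.47) and counts that were not halved (1.46, edgeR adjusted p 0.0542). Over the alternatives the adjusted p of edgeR or DESeq2 for ARL6IP4 ran from 0.0407 to 0.391. No paired analysis was possible because each group has 1 library. With 1 library a group, none could be left out in turn.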
